A study of Mus musculus with 6 samples.

Results

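Digestive enzymes of the pancreatic type are 9 genes here, Clps, Pla2g1b, Cel, Pnlip, Cpa1, Cpb1, Ctrb1, Cela1 and Cela2a, listed by name and read on arrays of mouse aorta RNA. Each gene was read at the probe set that carries its symbol alone, and 8 of the 9 genes had one, a single probe set each, out of 19938 genes read in this way. Pnlip, pancreatic triglyceride lipase, was named by no probe set and was not analysed here. The genes were chosen by earlier readings of the same values on the 6 arrays, so the levels below are a description. The arrays carried RNA of 3 Trail knockout and 3 wild-type aorta samples, from mice all 6 weeks old and all of the strain C57Bl6/J per the labels, with the knockout line obtained from Amgen. Trail, a protein ligand that can trigger cell death, is encoded by Tnfsf10, and the study asked what its loss does to gene expression in this tissue. The design text counts 3 mice per genotype, but no label ties a sample to a single mouse, and p-values therefore reflect only how these particular samples vary, which may be technical.

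Acinar cells of the pancreas make most of the enzymes that break down food in the gut, and they store the proteases as inactive precursors. Colipase and the phospholipase act on fat together with bile and lipase, the carboxypeptidases trim amino acids from the ends of peptides, and chymotrypsin and the elastases cut within protein chains. The aorta is not a known source of these enzymes. In mice, colipase and the group IB phospholipase are also made in the stomach.

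The arrays stood apart from each other in ways the genotype labels do not describe. The probe set of the deleted gene Tnfsf10 gave log2 signals of 5.02, 4.48 and 4.09 on knockout 1, 2 and 3, against 8.42, 4.90 and 4.85 on wild type 1, 2 and 3. It therefore separated the array labelled wild type 1 from the rest, and the other wild-type arrays lay within the knockout range of 4.09 to 5.02. Of the vascular smooth muscle list, Acta2, a smooth muscle actin that any smooth muscle makes, was at 12.27 to 12.63 on all 6 arrays. The list median was 9.76, 9.93 and 9.31 on the knockout arrays, against 9.94, 9.56 and 9.86 on the wild-type arrays. Only 1 of its 8 genes was over 2-fold highest on wild type 1. This was Eln, elastin of the vessel wall, at 8.96, 8.81 and 8.68 on the knockout arrays, against 10.31, 8.84 and 8.60 on the wild-type arrays. Cnn1 went the other way, with 9.57 on wild type 1 and at least 9.94 elsewhere, and Myh11 was at 11.35 there, within its range of 11.21 to 12.02. Squamous epithelium markers had list medians of 11.72 to 11.87 on the knockout arrays and of 4.89, 12.01 and 11.80 on wild type 1, 2 and 3, and skeletal muscle markers were likewise low on wild type 1 alone. On knockout 1, 5 of 7 lung epithelium markers were over 2-fold above every other array. Among them was the surfactant gene Sftpc at 11.88, against at most 4.87 elsewhere. The share of all annotated probe sets over 2-fold highest on knockout 1 was not counted. Across annotated probe sets wild type 1 correlated with the other arrays at Pearson r of 0.899 to 0.907, against 0.974 to 0.996 among the other 5. In bulk tissue, fewer cells of a type and less RNA per cell cannot be told apart.

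Clps and Pla2g1b were very high on the array labelled knockout 2, intermediate on wild type 3 and low on the remaining 4. The other 6 genes varied little on any array. To place low values, the signals of 1035 olfactory receptor (Olfr) probe sets were used, genes taken as silent in these tissues. Their 95th percentile lay between 4.94 and 5.30 on the 6 arrays. Probe sets differ in how strongly they bind their target, so this level is a guide and not a detection test. By it, 3 genes were below the level on all arrays (Cel, Cpa1 and Cpb1), and the others were above it on all 6 arrays. Of these others, 2 were called high on a single array (Clps and Pla2g1b), because 1 array was over 1 log2 unit above every other. The remaining 3, called in between, had little spread (Ctrb1, Cela1 and Cela2a). The member closest below the level was Cpa1 on wild type 3, at 5.08 against 5.13 there, and the closest above it was Pla2g1b on wild type 1, at 5.26 against 5.12. Over all annotated probe sets, 23.8% stayed below the level on every array and 81.2% had a range under 1 log2 unit.

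**Figure D1:**
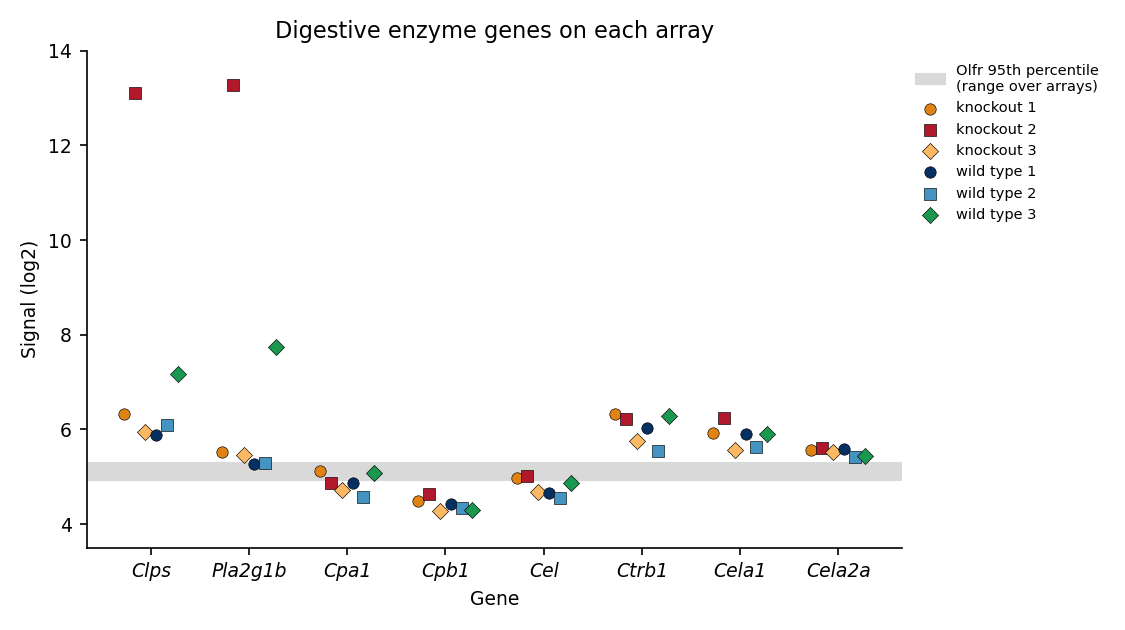
Log2 signal (vertical axis) of the 8 measured digestive enzyme genes (horizontal axis), 1 point per array; the grey band spans the 95th percentiles of olfactory receptor probe sets on the 6 arrays. Clps and Pla2g1b reach 13.10 and 13.29 on knockout 2 and 7.17 and 7.73 on wild type 3, and no other gene exceeds 6.32.

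Among the genes of fat digestion, Clps encodes colipase, the small cofactor that anchors pancreatic lipase to fat droplets. Clps gave 6.32, 13.10 and 5.94 on knockout 1, 2 and 3, against 5.89, 6.10 and 7.17 on wild type 1, 2 and 3. The knockout values thus enclosed all but the lowest wild-type value, and the spread of the knockout group came from knockout 2. That array was 7.08 log2 units above the median of knockout 1, knockout 3, wild type 1 and wild type 2, and 5.93 above wild type 3. Those 4 arrays lay within 0.42 of each other, and wild type 3 was 1.15 above their median.

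Pla2g1b encodes the secreted group IB phospholipase A2, which cleaves phospholipids in the gut. Pla2g1b gave 5.51, 13.29 and 5.45 on knockout 1, 2 and 3, against 5.26, 5.30 and 7.73 on wild type 1, 2 and 3. The 2 groups overlapped, with 1 high array in each. Knockout 2 was 7.91 log2 units above the median of knockout 1, knockout 3, wild type 1 and wild type 2 and 5.55 above wild type 3. Wild type 3 in turn was 2.36 above that median, while the 4 arrays lay within 0.25 of each other. On those 4 arrays Pla2g1b lay close to the olfactory receptor level, and Clps lay further above it, at 5.89 to 6.32. These gaps are given for both genes as signal differences and not as fold changes of the transcript. Ranked by the gap between knockout 2 and the highest other array, Clps was number 3 and Pla2g1b number 7 of 19938 genes. Of all annotated probe sets, 1.15% were over 2-fold above every other array on knockout 2, and 0.188% were over 2-fold above the 4-array median on wild type 3. The list was chosen with these values known, and no test was made of them.

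Cel, carboxyl ester lipase, is the bile salt-stimulated enzyme that hydrolyses cholesterol esters and other esters. Cel gave 4.97, 5.02 and 4.68 on the knockout arrays, against 4.67, 4.55 and 4.86 on the wild-type arrays. It was highest on knockout 2, but by 0.06 over knockout 1, and was below the olfactory receptor level everywhere.

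Both pancreatic carboxypeptidases were also below that level. Cpa1, carboxypeptidase A1, which removes aromatic and aliphatic residues, gave 5.13, 4.86 and 4.72 on the knockout arrays, against 4.86, 4.57 and 5.08 on the wild-type arrays. Its highest value was on knockout 1 and its lowest on wild type 2. Cpb1, carboxypeptidase B1, which removes basic residues, gave 4.49, 4.63 and 4.28 on the knockout arrays, against 4.42, 4.34 and 4.30 on the wild-type arrays. Cpb1 had a range of 0.35 over the 6 arrays, and Cpa1 one of 0.56.

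The serine proteases also varied by under 1 log2 unit, and were above the olfactory receptor level on every array. Ctrb1, chymotrypsinogen B, gave 6.32, 6.23 and 5.76 on the knockout arrays, against 6.03, 5.55 and 6.29 on the wild-type arrays. Cela1, the elastase family member 1, gave 5.92, 6.23 and 5.56 on the knockout arrays, against 5.91, 5.64 and 5.91 on the wild-type arrays. Cela2a, a pancreatic elastase that cuts after bulky residues, gave 5.58, 5.60 and 5.53 on the knockout arrays, against 5.59, 5.42 and 5.43 on the wild-type arrays. The groups overlapped for all 3. Cela2a had the smallest range of the 8 genes, 0.18, and Ctrb1 and Cela1 had the widest of the 6 even genes, 0.77 and 0.68. Cela1 was highest on knockout 2, by 0.31 over the next array. The 6 even genes shifted slightly together by array. On wild type 2 all 6 were below their own mean, with a median deviation of -0.235, and on knockout 1 all 6 were above it, by a median of 0.128. The olfactory receptor probe sets deviated in the same directions on these arrays, by -0.0745 on wild type 2 and 0.0828 on knockout 1. On knockout 2 the even genes were 0.211 above their means in the median and the olfactory receptor probe sets were at -0.023.

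The DNA upstream of these genes is shown for the high gene Pla2g1b, for Pgc, a gastric gene described below that was high on the same arrays, and for the even genes Cela1 and Cela2a. Each line gives the 150 bases before the annotated start from RefSeq (mouse build GRCm38.p6), read 5′ to 3′ on the strand of the gene. Capitals mark matches, on either strand, to the TATA box, spelled TATAAA, to the E-box, spelled CANNTG, to the second box bound by the acinar factor PTF1, spelled TGGGAA, and to the GATA motif, spelled GATAAG. Matches that overlap run together.
Pla2g1b, chr5:115465992-115466141, plus strand: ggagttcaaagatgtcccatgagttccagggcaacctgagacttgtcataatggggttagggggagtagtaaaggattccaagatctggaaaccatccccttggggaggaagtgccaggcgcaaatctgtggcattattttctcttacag
Pgc, chr17:47726692-47726841, plus strand: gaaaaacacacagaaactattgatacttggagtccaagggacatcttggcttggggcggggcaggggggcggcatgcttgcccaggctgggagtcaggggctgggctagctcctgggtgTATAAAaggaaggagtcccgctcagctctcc
Cela1, chr15:100687921-100688070, minus strand: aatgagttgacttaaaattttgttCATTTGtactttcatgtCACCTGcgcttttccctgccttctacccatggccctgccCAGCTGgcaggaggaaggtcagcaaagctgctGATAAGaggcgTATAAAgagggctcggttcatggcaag
Cela2a, chr4:141826006-141826155, minus strand: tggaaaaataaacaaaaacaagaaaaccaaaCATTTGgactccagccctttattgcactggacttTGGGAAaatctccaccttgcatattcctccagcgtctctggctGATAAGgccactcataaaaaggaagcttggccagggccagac
None of these 4 motifs was found in the Pla2g1b window, and the Pgc window held a single TATA box. The Pla2g1b window ends in a stretch rich in T and C followed by cag, as an intron can. Whether its annotated start is where transcription begins was not checked, so the window may not be the promoter. Cela1 held the TATA box, the GATA motif and 3 matches to the E-box. Cela2a held the GATA motif, the PTF1 second box and a single E-box. The even genes not shown held fewer kinds of motif. Ctrb1 held only a GATA motif and Cpb1 only 2 E-boxes. Cpa1 and Cel each held the PTF1 second box, with a single E-box and 3 E-boxes. Of the 9 listed genes 8 had an entry, all except Clps, and among those 8 the E-box was found upstream of 5, the GATA motif of 4, the PTF1 second box of 3 and the TATA box of 2. Among 27025 genes, windows of the same length held the E-box in 47.5%, the GATA motif in 3.84%, the PTF1 second box in 13.1% and the TATA box in 8.07%. The motifs were chosen by name, and a match shows only that the letters are present.

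Of the 8 genes with profiles most like Clps and Pla2g1b over the 6 arrays, 5 were on the gastric gland list. That list was chosen with earlier results of these data known, and its share among all genes compared was not counted. Clps and Pla2g1b correlated with each other at Pearson r of 0.989, a value carried by the high array, and all 6 points come from the same libraries. Among 1351 genes with a range of at least 2 log2 units, the 8 most like the mean of the pair had r of 0.995 to 0.999. They were Ctse (cathepsin E), Atp4a (the catalytic subunit of the gastric acid pump), Lgals2 (galectin 2), Tff2 (a trefoil peptide of mucous neck cells), Cblif (intrinsic factor), Muc5ac (the mucin of surface mucous cells), Lypd8 and Sult1c2. Lgals2, Lypd8 and Sult1c2 were on none of the lists used here. Atp4a gave 5.62, 12.44 and 5.19 on the knockout arrays, against 5.19, 5.05 and 6.63 on the wild-type arrays, the same order of high, intermediate and low arrays. Ctse gave 5.07, 11.75 and 5.03 on the knockout arrays, against 4.94, 4.96 and 6.83 on the wild-type arrays.

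A list of gastric gland genes moved with the pair. Its median was 5.28, 10.87 and 4.99 on knockout 1, 2 and 3, against 4.96, 4.80 and 6.11 on wild type 1, 2 and 3. On knockout 2, 16 of 20 of its genes were over 2-fold above every other array, beside 1.15% of annotated probe sets. On wild type 3, 10 of 20 were over 2-fold above the median of knockout 1, knockout 3, wild type 1 and wild type 2. The share of annotated probe sets was 0.188% there. Pgc, the precursor of the stomach protease pepsin C, gave 4.52, 13.18 and 4.95 on the knockout arrays, against 4.62, 4.53 and 7.75 on the wild-type arrays. Gkn1 and Gkn2, the gastrokines of surface mucous cells, reached 12.97 and 13.00 on knockout 2 and 8.99 and 8.64 on wild type 3, with at most 5.51 and 4.88 elsewhere. The gap between knockout 2 and wild type 3 was 5.93 for Clps and 5.55 for Pla2g1b, beside 5.43 for Pgc, 5.73 for Muc5ac, 4.36 for Gkn2 and 3.98 for Gkn1. Gast (gastrin, from the lower stomach) and Lipf (gastric lipase) had ranges under 1 log2 unit. The part of the gastric genes in the values of Clps and Pla2g1b was not tested.

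**Figure D2:**
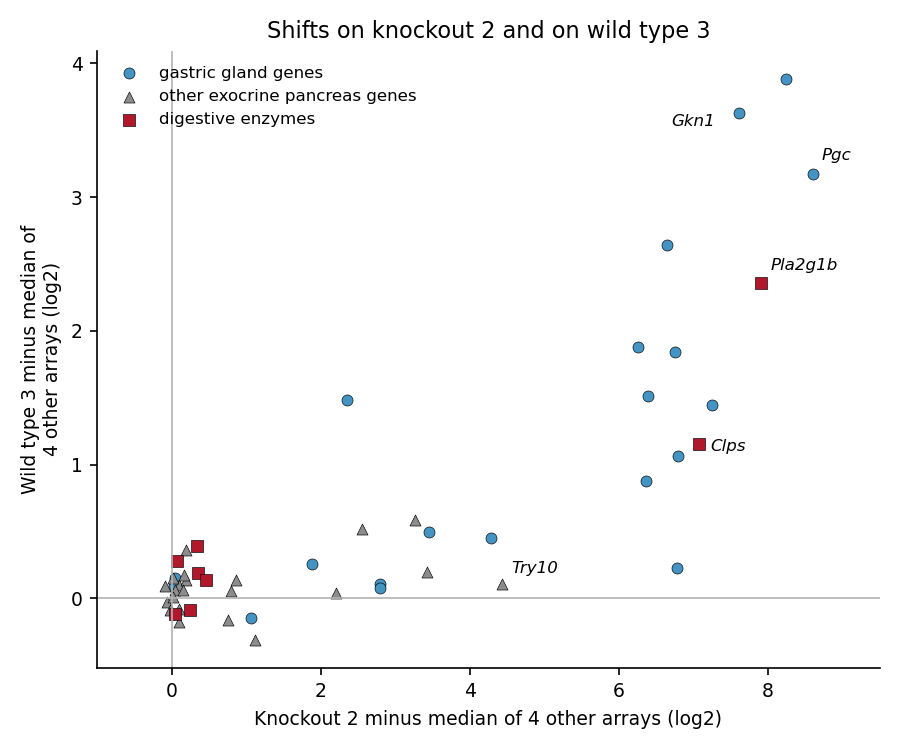
Shift of each gene on knockout 2 (horizontal axis, log2) and on wild type 3 (vertical axis, log2), both relative to the median of knockout 1, knockout 3, wild type 1 and wild type 2; red squares are the 8 digestive enzymes, blue circles 20 gastric gland genes and grey triangles 22 other exocrine pancreas genes. Clps (7.08 and 1.15) and Pla2g1b (7.91 and 2.36) lie among the gastric genes, and the other 6 enzymes lie near 0 on both axes.

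Other genes of the exocrine pancreas divided in a similar way. Their list median was 4.44, 5.17 and 4.39 on the knockout arrays, against 4.22, 4.18 and 4.46 on the wild-type arrays, and 15 of 22 had a range under 1 log2 unit, beside 81.2% of annotated probe sets. The even ones included the trypsin gene Prss2, at 4.76 on knockout 2, the elastase Cela3b, at 5.02, the zymogen granule gene Gp2, at 4.05, and Reg1, at 3.95. Knockout 2 was over 2-fold above every other array for 6 of 22, beside 1.15% of annotated probe sets, namely Try10, Pnliprp1, Pnliprp2, Tmed6, Cckar and Dmbt1. Try10, a trypsin gene, gave 8.41 there and at most 4.08 elsewhere, and since trypsin genes are close copies of one another its probe set may also bind others. Pnliprp2, a lipase related to Pnlip, gave 7.94 on knockout 2 and at most 5.26 elsewhere. Cckar, the cholecystokinin receptor, gave 7.29 on knockout 2 and at most 5.38 elsewhere. On wild type 3, 0 of 22 were over 2-fold above the 4-array median, beside 0.188% of annotated probe sets. Rnase1 differed by being low on wild type 1, at 5.31, against at least 7.86 elsewhere.

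Of 6 acinar transcription factors, 1 (Gata4) was over 2-fold above every other array on knockout 2, beside 1.15% of annotated probe sets. Ptf1a, which is needed for acinar identity, gave 5.45, 5.25 and 5.27 on the knockout arrays, against 5.04, 5.14 and 5.19 on the wild-type arrays, so it was not highest on knockout 2. Its partner Rbpjl lay between 5.70 and 6.07. Gata4, which is also active in the stomach epithelium, gave 6.38, 8.90 and 6.10 on the knockout arrays, against 6.35, 6.00 and 6.56 on the wild-type arrays. Bhlha15, a factor of secretory cells including gastric chief cells, gave 6.19 on knockout 2 and at most 5.23 elsewhere, a gap of 0.97. Nr5a2 gave 5.04 on knockout 2 and at most 5.24 elsewhere, and Xbp1 gave 9.93 and at most 9.65.

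Of the islet genes, Ins2 (insulin) lay between 4.60 and 5.07 and Iapp (amylin) between 3.37 and 3.63. Sst (somatostatin) and Chga (chromogranin A), which endocrine cells of the stomach also make, gave 9.39 and 8.97 on knockout 2 and at most 6.21 and 6.39 elsewhere. Salivary gland genes had 0 of 8 and liver genes 2 of 6 over 2-fold highest on knockout 2, beside 1.15% of annotated probe sets. These liver genes were Apoa1 at 11.62 and Ttr at 8.40. Of 11 intestinal enterocyte genes, 3 (Fabp2, Vil1 and Apoa4) were over 2-fold highest on knockout 2, beside the same 1.15%. A range under 1 log2 unit was found for 7 of the 11, beside 81.2% of annotated probe sets.

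**Figure D3:**
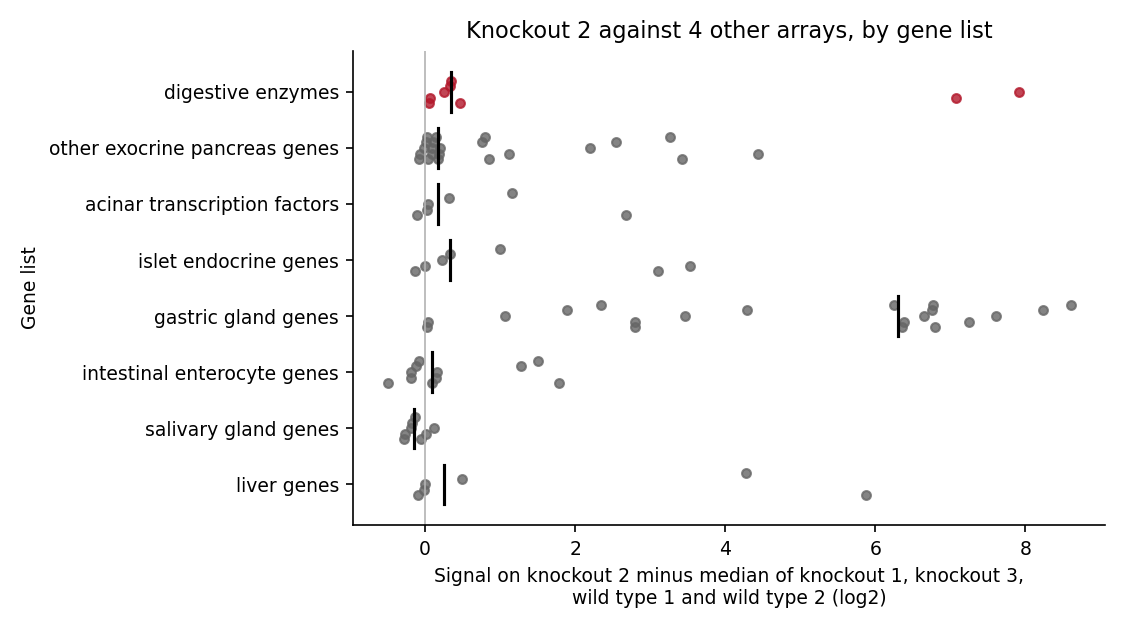
Signal on knockout 2 minus the median of knockout 1, knockout 3, wild type 1 and wild type 2 (horizontal axis, log2), 1 point per gene for 8 gene lists (vertical axis); black bars are list medians. Gastric gland genes lie furthest to the right, and 2 of the 8 digestive enzymes lie among them. Of the gastric genes, 16 of 20 were over 2-fold above every other array, beside 1.15% of annotated probe sets.

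Relatives of the digestive enzymes differed in which array was highest. Among other secreted phospholipases A2, 1 of 10 was over 2-fold highest on knockout 2, beside 1.15% of annotated probe sets. It was Pla2g10, at 7.46 against at most 6.24 elsewhere. Pla2g2f gave 7.34, 7.16 and 7.71 on the knockout arrays, against 5.73, 7.99 and 7.30 on the wild-type arrays, and was thus lowest on wild type 1, as was Pla2g3 at 5.70. Of 9 other lipases, 6 were over 2-fold highest on wild type 1, among them Lpl (lipoprotein lipase) at 12.10 and Lipe (hormone-sensitive lipase) at 11.17. Brown fat markers had a list median of 11.59 on wild type 1, against at most 7.12 elsewhere. The share of all annotated probe sets over 2-fold highest on wild type 1 was not counted. Of 12 other metallocarboxypeptidases, 0 were over 2-fold highest on any of knockout 1, knockout 2 and wild type 1. The share of annotated probe sets on knockout 2 was 1.15%. Cpa4, a relative of Cpa1, gave 9.47, 9.26 and 9.91 on the knockout arrays, against 4.99, 9.80 and 9.48 on the wild-type arrays, and was thus low on wild type 1 alone. Cpm, a membrane-bound carboxypeptidase, gave 6.61, 7.44 and 6.00 on the knockout arrays, against 5.86, 5.88 and 5.56 on the wild-type arrays, with its highest value on knockout 2. Amy1, the salivary-type amylase, gave 8.23, 8.07 and 8.28 on the knockout arrays, against 10.81, 7.89 and 8.40 on the wild-type arrays, so this starch-digesting enzyme was highest on wild type 1 and not on knockout 2.

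For the 3 even genes above the olfactory receptor level, the most similar profiles were weaker matches. Cela1 was closest to Car2 (carbonic anhydrase 2) at r of 0.937, followed by Pip5k1b, Cxcl17 and Tmem98 at 0.900 to 0.920. For Cela2a the closest were Pip5k1b, Tnni3, Retn and Scd1, at 0.760 to 0.789, and for Ctrb1 they were Gprc5a, Akap5, Cldn18 and Pip5k1b, at 0.652 to 0.714. Since these 3 genes varied by 0.18 to 0.77 log2 units, the correlations rest on small differences over 6 arrays.

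The genotypes were then compared for every gene. Clps averaged 8.45 ± 4.03 in knockout and 6.39 ± 0.69 in wild-type aortas (SD, n = 3 each), a difference of 2.06 (SE 1.90, 95% interval -2.55 to 6.68, limma adjusted p = 0.951). Pla2g1b averaged 8.08 ± 4.51 in knockout and 6.10 ± 1.42 in wild-type aortas (SD, n = 3 each), a difference of 1.99 (SE 2.19, 95% interval -3.35 to 7.32, limma adjusted p = 0.951). Both differences were smaller than the spread within the knockout group. Without knockout 2 their signs turned, to -0.26 (SE 0.42) for Clps and -0.62 (SE 0.82) for Pla2g1b, each with a limma adjusted p = 0.988. Without knockout 1 or knockout 3, which leaves knockout 2 more weight, the differences were 3.13 and 3.32 for Clps and 3.27 and 3.30 for Pla2g1b. Without both knockout 2 and wild type 3, a run added after seeing the data, the differences were 0.13 (SE 0.22) and 0.20 (SE 0.16). Without knockout 2 and wild type 1 they were -0.51 (SE 0.31) and -1.03 (SE 0.60).

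The other 6 enzymes differed by at most 0.20 between the genotypes. The difference was 0.20 (SE 0.14) for Cel, 0.15 (SE 0.24) for Ctrb1, 0.12 (SE 0.11) for Cpb1, 0.091 (SE 0.10) for Cela2a, 0.086 (SE 0.20) for Cela1 and 0.068 (SE 0.17) for Cpa1. Their limma adjusted p lay between 0.951 and 0.963. The widest interval among them, that of Ctrb1, was -0.44 to 0.74. None of the 8 genes passed at an adjusted p under 0.05. Of all 23410 annotated probe sets, 0 passed (0.0%), and 295 (1.26%) had an unadjusted limma p under 0.05. The groups did not overlap for 0 of the 8 genes and for 6.24% of the annotated probe sets. The knockout mean was the higher in 8 of 8 genes, with a median difference of 0.133, against 50.6% of annotated probe sets, with a median of 0.0024. Without knockout 2 the count was 5 of 8 and the median 0.054, against 52.6% and 0.011.

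**Figure D4:**
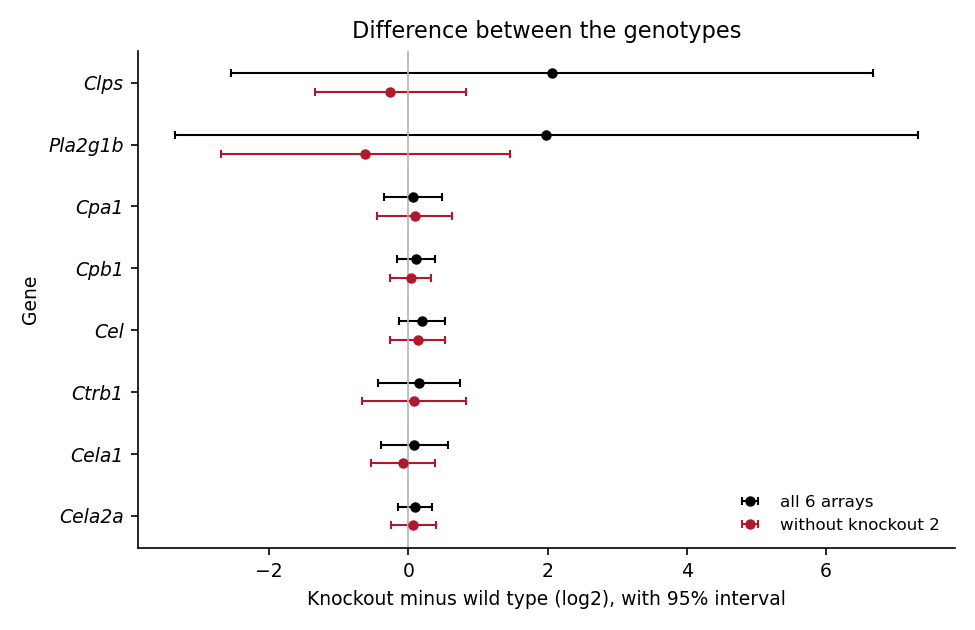
Knockout minus wild type difference (horizontal axis, log2) with its 95% interval for the 8 digestive enzyme genes (vertical axis), from limma on all 6 arrays (black) and without knockout 2 (red). Every interval includes 0, and the differences of Clps and Pla2g1b change sign when knockout 2 is left out.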

How the data were processed

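RNA of mouse aorta from 3 Trail knockout and 3 wild-type samples was measured on one-colour Affymetrix arrays, with Trizol extraction and biotinylated cRNA from 6 ug of total RNA per the labels' protocols. The deposited table holds log2 signals of 35399 probe sets on 6 arrays. Base 2 was inferred from their range, 1.55 to 13.96, since the labels give none. MAS5 appears in the submitters' processing notes without a version or a step. How background was corrected and arrays were scaled is not known here. A compressed scale at the top or bottom of the range would shrink differences there, and the number of arrays limits the precision. Values were used as deposited.

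The platform annotation lists 23410 probe sets, of which 21789 have 1 gene symbol. Where a gene had several, the one with the highest mean over the 6 arrays was read. Knockout and wild type were compared with limma 3.58.1 (R 4.3.3), a two-group model, moderation with an intensity trend, and p-values adjusted by Benjamini-Hochberg over all annotated probe sets, with no filter on low values, since some of the listed genes are dim. The code was tested on simulated data. No detection calls were used.

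The members, the 16 lists of other genes and the rules were chosen with earlier results of these data known. The rule named the 8 genes most like Clps and Pla2g1b, 4 for each further gene above the background level, and up to 4 of each list with the largest gap between the highest array and the median. Other genes named were chosen after their values were seen. Alternatives covered filters, normalization, moderation, array weights, a replicate block, background levels and leaving out arrays.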

Additional observations from a re-analysis of the deposited data

How the results depend on the processing

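The count of 0 probe sets passing between the genotypes was the same under every alternative run, with 89 (of 14046, the lowest 40% by mean left out) to 833 (array weights) having an unadjusted limma p under 0.05. Over 140 runs of the 8 genes (17 or 18 alternatives each) none passed, the lowest limma adjusted p was 0.811, and 127 kept their sign. The filter on the lowest 40% left 4 of the 8 genes in the test, Clps, Pla2g1b, Ctrb1 and Cela1. Without 1 array each, the difference ranged from -0.26 to 3.32 for Clps, -0.62 to 3.30 for Pla2g1b, 0.13 to 0.30 for Cel, -0.067 to 0.19 for Cpa1, 0.034 to 0.21 for Cpb1, -0.053 to 0.32 for Ctrb1, -0.079 to 0.26 for Cela1 and 0.061 to 0.14 for Cela2a. Without knockout 2 and wild type 1 the sign turned for Clps (-0.51), Pla2g1b (-1.03) and Cela1 (-0.033), without knockout 2 and wild type 3, a run added after seeing the data, for Cela1 (-0.034), and with array weights for Cpa1 (-0.065) and Ctrb1 (-0.021). Knockout 2 held the high value of Clps, Pla2g1b and Cela1, and the cause of the other changes was not tested. Same-numbered arrays share only a number: their deviations correlated at 0.089, -0.199 and 0.115, and knockout 3 correlated best with wild type 2, at 0.384. With the replicate block 0 probe sets passed and 271 had an unadjusted p under 0.05, and Clps was at 2.06 with an SE of 1.70.

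Clps and Pla2g1b kept the class high on a single array under every background level and scaling tried. The background levels tried could not change this class. Knockout 2 exceeded all of them and was over 1 log2 unit above every other array. With the 90th percentile of olfactory receptor probe sets, 1 gene (Cpb1) was near background on all arrays and 5 were in between. With the 99th percentile 1 (Ctrb1) was in between, Cela2a was near background, and Cela1 exceeded the level on knockout 2 alone, where it was 0.31 above the next array. With the 40th percentile of annotated probe sets Cela2a was also near background. Differences near the background level, such as those of Cel, Cpa1 and Cpb1, are limited by signal.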
